A study of Mus musculus with 14 samples.

Results

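Genes of the actin cytoskeleton and of the contractile apparatus were examined in mouse fibroblasts that lack Ptdsr (current symbol Jmjd6), the gene first described as a phosphatidylserine receptor. The members were taken by gene symbol from the platform annotation: actins, myosin chains, tropomyosins, calponins, transgelins, filamins, talins, cofilin, profilins, capping proteins, the Arp2/3 complex with other actin-related proteins, and the adhesion and membrane linkers vinculin, zyxin, paxillin, ezrin and moesin. The pattern met 58 symbols, and 55 of them had a ratio on at least 10 of 14 arrays and are the members, out of 9290 genes with as many ratios. No measured ratio entered the choice beyond this count of arrays. All 55 members were also among the 9270 genes tested, since each had a ratio on at least 4 arrays of either dye orientation.

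Ptdsr-/- fibroblasts were hybridised together with wild-type (Ptdsr+/+) fibroblasts on each of 14 two-colour arrays, with a dye swap: the knockout RNA carried Cy5 on 7 arrays (replicates 1, 3, 4, 7, 8, 9 and 13) and Cy3 on 7 (replicates 2, 5, 6, 10, 11, 12 and 14). The channel labels name fibroblasts, while the extraction protocol mentions organs and pooled control animals. The study names a pair of separate cell cultures, but the labels tie no array to a culture, so the arrays were counted as replicates and p-values measure the spread between arrays, part of which may be technical. Wild-type RNA was the other channel of every array and its own spread was not measured. Passage, age, sex and strain of the cells were not found in the labels. Every value is a log2 ratio of knockout over wild type after each array was centred on its median. That direction is likely and not stated: it rests on the sign of a coded extreme, which was positive wherever the knockout carried Cy5 and negative wherever it carried Cy3. If the scanner formed Cy5 over Cy3, the swapped arrays had already been turned before deposition and all values are knockout over wild type. If it formed Cy3 over Cy5, the same signs would make all values wild type over knockout. Every direction given here would then be reversed.

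Between 13165 and 19615 of 20355 probes had a usable ratio on an array. The targeted gene Jmjd6, averaged over its probes, lay at -0.25 ± 1.04 (SD, n = 14), was below 0 on 12 of 14 arrays and missed the threshold (limma, adjusted p = 0.934). No source used here says whether its probes lie in the deleted part. A ratio holds no signal level, so whether the cultures expressed the defining fibroblast genes was not tested. Of 15 measured fibroblast markers 0 were called, with a median of 0.0021. Of 15 skeletal or cardiac muscle markers and 8 smooth muscle and pericyte markers outside the members 0 were called as well, with medians of -0.078 and 0.14, and likewise 0 of 7 epithelial markers (median 0.088) and 0 of 4 endothelial markers (median 0.16). Of 7 macrophage markers 1 was called lower, Lyz2 at -1.62 ± 0.96 (SD, n = 14, limma, adjusted p = 0.0104), against 0.0863% of all genes called. The median of the 7 was -0.40, with 5 means below 0 and 2 above.

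Actin monomers assemble into polar filaments that give a fibroblast its shape and drive its movement. Profilin feeds monomers to growing ends, cofilin severs old filaments, capping protein closes their ends, and the Arp2/3 complex starts branches. Non-muscle myosin II pulls on these filaments under the control of its regulatory light chain, tropomyosin and caldesmon set its access, and talin, vinculin, paxillin and zyxin tie the filaments to integrins. Actin filament assembly releases the coactivator of serum response factor (SRF), which binds the CArG box and drives many of the same genes. Genes of this kind rise when fibroblasts turn into contractile myofibroblasts, for which Acta2 (smooth muscle actin) is the usual marker.

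None of the 55 members passed the test for a difference between knockout and wild-type fibroblasts, so the comparison named no actin or contractile gene as higher or lower in cells without Ptdsr. At an adjusted p below 0.05 (limma, Benjamini-Hochberg over 9270 genes) 0 members were lower and 0 higher, against 0.0863% of all genes called, which were 8 genes and all lower. At an unadjusted p below 0.05, ezrin (Ezr) and the actin-related protein Actr8 (2 members) lay lower and 0 members lay higher, against a background of 2.94% of all genes lower and 2.41% higher. A count of 2 in 55 is near that background and is not a result about the members. The mean ratios of the members had a median of 0.053, with quartiles at -0.12 and 0.17, beside a median of 0.0021 with quartiles at -0.16 and 0.16 over all genes tested. Of the member means 22 lay below 0 and 33 above. A smaller share of cells that carry a transcript and less of it in each cell cannot be told apart in these bulk ratios.

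**Figure D1:**
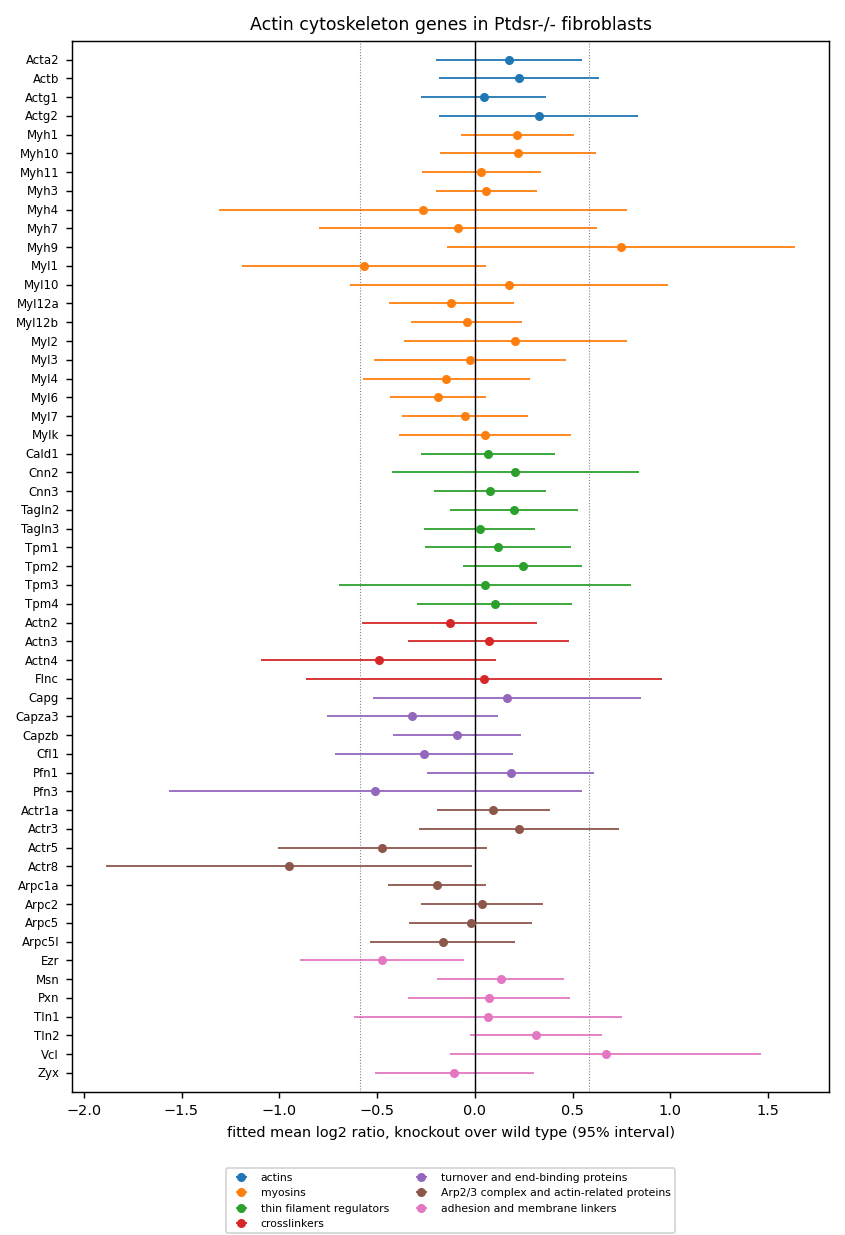
Fitted mean log2 ratio of knockout over wild type for each of the 55 members (point) with its 95% interval from limma (line), coloured by role; the dotted lines mark a 1.5-fold difference in either direction. The intervals of Ezr and Actr8 alone leave out 0, and neither gene passed after adjustment.

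The precision of these arrays set what could be seen. The 95% interval of the mean, taken for each gene by itself from limma, lay within 1.5-fold of no difference for 30 of 55 members (54.5%), compared with 42.8% of all genes, and within 1 log2 unit for 47 members (85.5%), compared with 81.2%. The narrowest interval from all 14 arrays belonged to Myl6, the essential light chain of non-muscle and smooth muscle myosin, and ran from -0.43 to 0.06. Each interval was taken after the probes of a gene were averaged, so disagreement between probes is not part of it. Of the members 19 had more than 1 probe. Over probe pairs with at least 10 shared arrays the median Spearman correlation was 0.045, and the 2 probes of Myl6 correlated at -0.539. The interval of Myh9, the heavy chain of non-muscle myosin IIA, ran from -0.14 to 1.64. The median SD over arrays was 0.73 log2 units for members and 0.81 for all genes. Each of the 55 members lay above 0 on some arrays and below 0 on others. Of all genes tested, 22 (0.237%) kept 1 sign on every array, and 0 of 55 members is near that share.

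**Figure D2:**
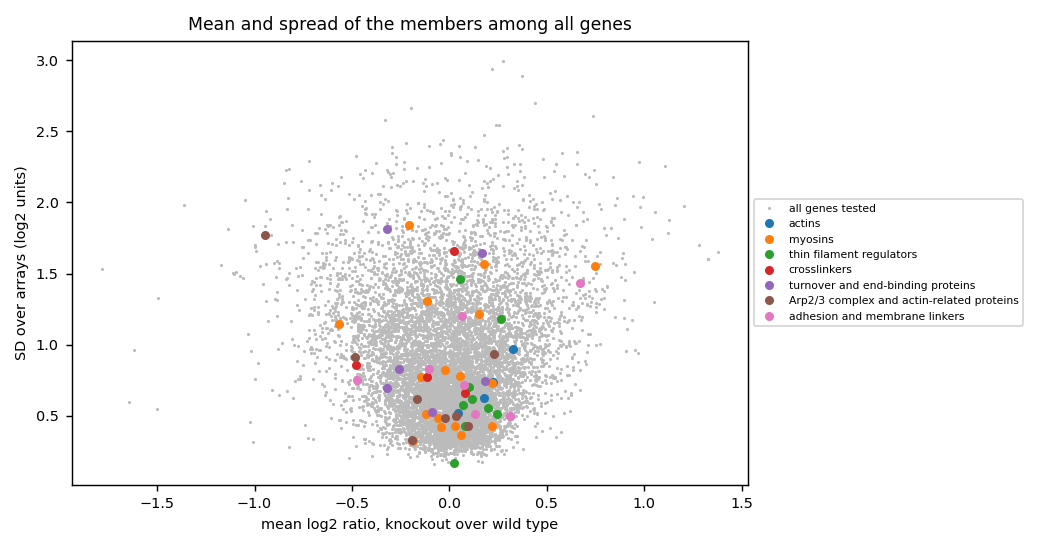
Mean log2 ratio of knockout over wild type (x axis) and SD over arrays in log2 units (y axis) for 9270 genes (grey) and the 55 members (coloured by role). The members lie within the cloud of all genes, with Tagln3 at its lower edge (SD 0.17), and Actr8 is the member with the lowest mean, at -0.95.

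To show the regulatory sequence that several members share, promoter stretches were read from the RefSeq table of the mouse build GRCm38.p6, which covers 250 bases before and 50 bases after each start. The CArG box was searched as CC, then 6 bases that are A or T, then GG, a pattern that reads the same on both strands. It was present for 7 of the 45 members with a promoter in the table (15.6%), in contrast to 119 of 7493 tested genes (1.59%) and to 1.63% of all promoter windows. The stretches below stand for the actin, calponin, myosin and vinculin genes among them, with the CArG box in capitals and all bases 5′ to 3′ on the strand of the gene.
Actg1: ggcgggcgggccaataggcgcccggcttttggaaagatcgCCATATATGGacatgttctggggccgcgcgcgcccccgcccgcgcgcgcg
Cnn2: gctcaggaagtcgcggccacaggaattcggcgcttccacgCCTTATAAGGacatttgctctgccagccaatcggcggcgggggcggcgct
Myl6: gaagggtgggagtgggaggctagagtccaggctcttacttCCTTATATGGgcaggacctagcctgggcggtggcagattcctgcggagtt
Vcl: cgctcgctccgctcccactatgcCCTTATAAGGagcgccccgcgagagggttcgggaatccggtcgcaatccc
Myl7: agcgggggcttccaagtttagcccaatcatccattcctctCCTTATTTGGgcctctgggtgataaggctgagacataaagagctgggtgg

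The stretch of Actg1 lies at chr11:120348536-120348625 (minus strand), that of Cnn2 at chr10:79988504-79988593 (plus strand), that of Myl6 at chr10:128493010-128493099 (minus strand), that of Vcl at chr14:20929148-20929220 (plus strand) and that of Myl7 at chr11:5898794-5898883 (minus strand). The box begins 90 bases before the start of Actg1, 56 before that of Cnn2, 50 before that of Myl6, 227 before that of Vcl and 61 before that of Myl7. Myh4 and Myl3 are the other members with a match. The 7 genes did not share a direction: 4 means lay below 0 and 3 above, with a median of -0.025, beside 0.056 for the 38 members without a match in this window and 0.0026 for all tested genes with one. A match is a description of the letters, and no binding was measured.

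Of the 4 actins 0 passed. Their means lay above 0, but under 9 of 30 alternative settings 1 or 2 of them lay below 0, among them Actg1 with arrays scaled to equal spread, Actg1 and Actg2 on the Cy3-knockout arrays alone, Acta2 with the Cy3-knockout arrays turned, and Actb with 1 probe per gene. Actg1, the cytoplasmic gamma actin, had the smallest SD over arrays of the 4 but also the highest share of ratios of small whole numbers, 32.1%. It ran from -0.74 over a median of -0.04 to 0.96 between arrays, with a mean of 0.05 ± 0.52 (SD, n = 14). As many arrays lay below 0 as above, 7 each. Actg2, the smooth muscle gamma actin, had the smallest p of the group and ran from -1.17 over 0.35 to 1.72, with a mean of 0.33 ± 0.97 (SD, n = 14, limma, adjusted p = 0.902). It was high on replicates 1, 6, 13 and 14 and low on replicates 2, 11 and 12: the high arrays came from both dye orientations and the low ones carried the knockout in Cy3. It averaged 0.66 ± 0.73 on the Cy5-knockout arrays and -0.0049 ± 1.12 on the Cy3-knockout arrays (SD, n = 7 each). Actb, the cytoplasmic beta actin that is often used as a loading control, lay at 0.23 ± 0.74 and Acta2, the myofibroblast marker, at 0.17 ± 0.63 (SD, n = 14 each). The 95% interval of Acta2 ran from -0.20 to 0.55, from the average of 2 probes that correlated at -0.181 over 13 arrays.

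Of the 17 myosin genes, 9 means lay below 0 and 8 above, with a median of -0.025. Myl6 lay on 11 of 14 arrays below 0, between -0.90 and 0.37 with a median of -0.11, and had a mean of -0.19 ± 0.32 (SD, n = 14, limma, adjusted p = 0.901). Its SD was among the lowest 3.66% of all genes. The 2 probes of Myl6 differed, however, with SDs of 0.74 and 0.31 and a Spearman correlation of -0.539 over 10 shared arrays. Myl1, the alkali light chain of fast skeletal muscle, had the smallest p of the group and ran from -2.20 over -0.39 to 1.12, with a mean of -0.57 ± 1.15 (SD, n = 14, limma, adjusted p = 0.901, unadjusted p = 0.0727). It was below -1 on 6 arrays, replicates 1, 4, 5, 6, 7 and 14, and above 1 on replicates 2 and 12. The regulatory light chains of non-muscle myosin, Myl12a and Myl12b, lay at -0.12 ± 0.51 and -0.04 ± 0.42, and Mylk, the kinase that switches them on, at 0.05 ± 0.78 (SD, n = 14 each). Myh9 had the highest mean of all members, 0.75 ± 1.56 (SD, n = 12), with values from -1.28 to 3.69. The values of Myl12a, Myl12b, Mylk and Myh9 were chosen for the text after they had been seen, as were those of Actb and Acta2.

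Isoforms known from striated muscle were looked at as a check on the spots, since fibroblasts are not known to rely on them. The 11 such members (Actn2, Actn3, Myh1, Myh3, Myh4, Myh7, Myl1, Myl2, Myl3, Myl4 and Myl7) had means from -0.57 to 0.22 with a median of -0.06, and 30 members used by non-muscle cells had means from -0.48 to 0.75 with a median of 0.071. Ratios of whole numbers up to 10, which stand in for dim spots, made up a median of 15.4% of the values of the striated isoforms and 10.7% of those of the non-muscle set, beside 16.7% over all genes. By this stand-in the striated isoforms looked no dimmer than all genes, so it did not set them apart. Ratios on all 14 arrays were present for 4 of the 11 and for 25 of the 30, beside 4624 of all 9270 genes tested. The division was made from textbook knowledge after the values were known, and Ezr and Actr8 are in neither set.

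Of the 9 thin filament regulators, proteins that lie along actin and set how myosin reaches it, 0 passed. All 9 means lay above 0, from 0.024 to 0.26 with a median of 0.10, but under 12 of 30 alternative settings between 1 and 3 lay below 0. These were Cnn2, Tpm1 and Tpm3 with the Cy3-knockout arrays turned, Cald1, Cnn3 and Tpm4 on the Cy3-knockout arrays alone, Tpm3 and Tpm4 with arrays scaled to equal spread, and Tpm3 with quantile normalization, to name 4 of the 12. The group's median was -0.19 over replicates 7 to 12 and 0.35 over replicates 1 to 6, number ranges that the labels do not call batches. Tpm2, the beta tropomyosin, ran from -0.69 over 0.27 to 1.34, was above 0 on 10 of 14 arrays and had a mean of 0.24 ± 0.51 (SD, n = 14, limma, adjusted p = 0.901, unadjusted p = 0.108). It was below 0 on replicates 9, 10, 11 and 12. It averaged 0.46 ± 0.49 on the Cy5-knockout arrays and 0.03 ± 0.47 on the Cy3-knockout arrays (SD, n = 7 each), and the dye term did not pass (limma, adjusted p = 0.743). Cnn3, the acidic calponin, ran from -0.77 over 0.08 to 0.74 with a mean of 0.08 ± 0.43 (SD, n = 14). Tagln2, transgelin 2, lay at 0.20 ± 0.55 and the caldesmon gene Cald1 at 0.07 ± 0.58 (SD, n = 14 each).

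The 4 crosslinkers had means from -0.48 to 0.08. Actn4, the alpha-actinin of non-muscle cells, had the smallest p and ran from -1.72 over -0.48 to 0.80 with a mean of -0.48 ± 0.86 (SD, n = 10, limma, adjusted p = 0.901). It had no ratio on replicates 1 to 4. Actn3, the alpha-actinin of fast muscle, ran from -0.80 over 0.05 to 1.26 with a mean of 0.08 ± 0.66 (SD, n = 13), and the muscle filamin Flnc spanned -5.11 to 1.77, where the lowest value was that of replicate 2. Actn4 and the neuronal transgelin Tagln3, which lay at 0.02 ± 0.17 (SD, n = 10), were the members just inside the requirement of 10 arrays. Arpc4, a subunit of the Arp2/3 complex with ratios on 9 arrays and a mean of -0.51, was just outside it, and Myh8 and Myh14 had ratios on 6 and 5 arrays with means of 0.14 and 0.39.

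Among the 6 turnover and end-binding proteins, 4 means lay below 0 and 2 above. Capza3, the capping protein subunit known from testis, ran from -1.58 over -0.28 to 0.63 with a mean of -0.32 ± 0.69 (SD, n = 12, limma, adjusted p = 0.901). Capzb, the beta subunit of the capping protein, ran from -1.25 over -0.07 to 0.72 with a mean of -0.09 ± 0.53 (SD, n = 14). Its lowest values were those of replicates 10, 11 and 12. Cfl1, the cofilin of non-muscle cells, lay at -0.26 ± 0.83 and profilin 1 (Pfn1) at 0.18 ± 0.75 (SD, n = 14 each).

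The Arp2/3 complex and the actin-related proteins had 5 of 8 means below 0, with a median of -0.093. Actr8, a nuclear actin-related protein of the INO80 chromatin remodelling complex and no part of the filament system, ran from -6.06 over -0.62 to 1.24 with a mean of -0.95 ± 1.77 (SD, n = 14, limma, adjusted p = 0.901, unadjusted p = 0.0473). It was below 0 on 9 arrays and above 0 on 5, and replicate 13 held the lowest value. Without replicate 13 the fitted mean was -0.54. Actr5, another INO80 subunit, lay at -0.48 ± 0.92 (SD, n = 13). Of the Arp2/3 subunits, Arpc1a ran from -0.66 over -0.20 to 0.51, was below 0 on 10 of 14 arrays and had a mean of -0.19 ± 0.33 (SD, n = 14, limma, adjusted p = 0.901). Arpc2 lay at 0.04 ± 0.50, Arpc5 at -0.02 ± 0.49 and Arpc5l at -0.16 ± 0.62, and Actr3, which is Arp3 itself, at 0.23 ± 0.94 (SD, n = 14 each). Actr1a, the actin-related protein of dynactin, lay at 0.10 ± 0.43 (SD, n = 14).

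Of the 7 adhesion and membrane linkers, 2 means lay below 0 and 5 above. Ezr, which ties actin to the plasma membrane, had the smallest p of all members and ran from -2.53 over -0.41 to 0.44 with a mean of -0.47 ± 0.75 (SD, n = 14, limma, adjusted p = 0.901, unadjusted p = 0.0295). It was below 0 on 11 of 14 arrays, and the arrays above 0 were replicates 7, 8 and 9, all with the knockout in Cy5. Replicate 12 held the lowest value, and without it the fitted mean was -0.32. Msn, the related linker moesin, ran from -0.94 over 0.20 to 1.13 with a mean of 0.13 ± 0.52 (SD, n = 14), and at 0.04 without replicate 2. The talins Tln1 and Tln2 lay at 0.07 ± 1.20 and 0.31 ± 0.50 (SD, n = 13 each) and vinculin (Vcl) at 0.67 ± 1.43 (SD, n = 12), with replicate 12 at 4.52. Paxillin (Pxn) lay at 0.07 ± 0.72 and zyxin (Zyx) at -0.11 ± 0.83 (SD, n = 14 each).

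Ezr was the member from which likeness was measured. Over 14 arrays and 4624 genes with ratios on all of them, the genes with the highest Spearman correlation to Ezr were Nmral1 (0.943), Ephb3 (0.925), Stx4a (0.912), Tecr (0.908) and Sirt2 (0.899). These are descriptions over arrays that the labels tie to no culture. No member was among the 5, which says little, since 36 of the 4624 genes were members, Ezr included.

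**Figure D3:**
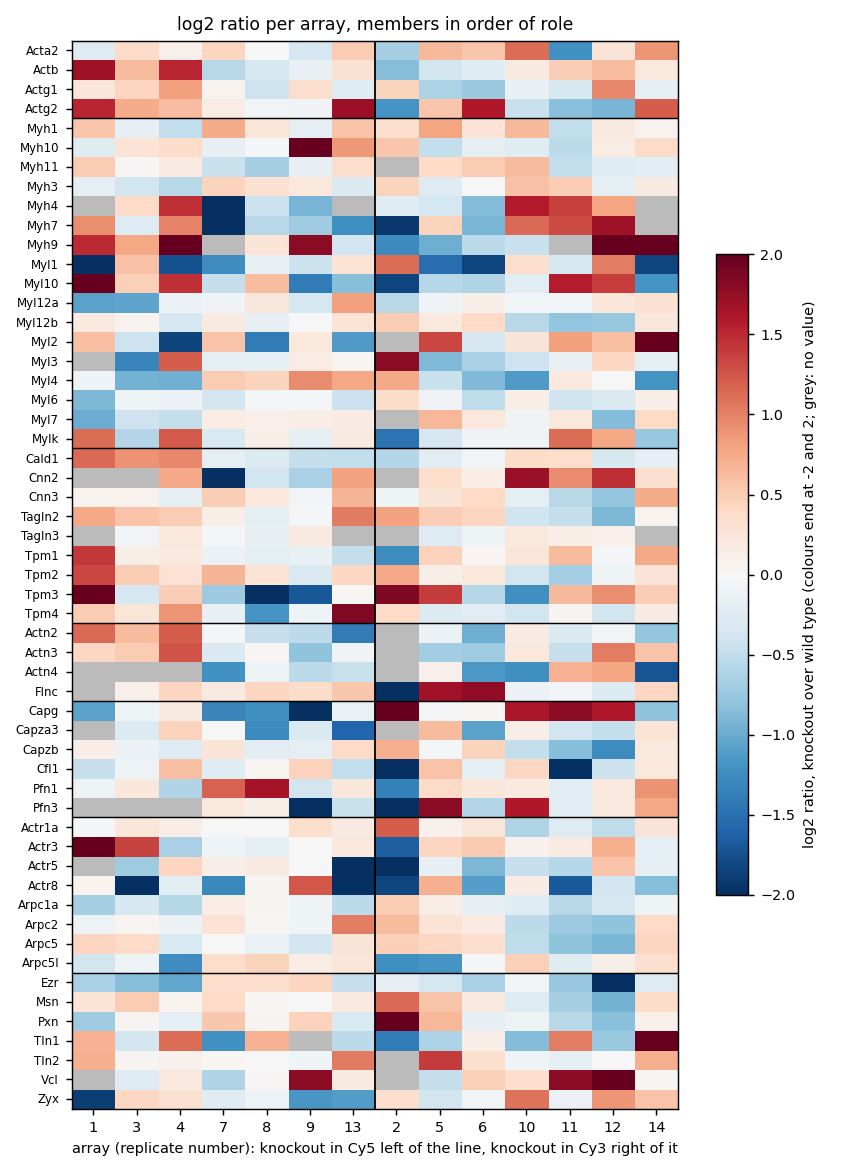
Log2 ratio of knockout over wild type for each member (rows, in order of role) on each array (columns), with the 7 arrays that carried the knockout in Cy5 left of the line and the 7 that carried it in Cy3 right of it; grey marks a missing ratio. Rows change colour on both sides of the line, and on replicates 10, 11 and 12 a set of rows that includes Capzb, Arpc2, Arpc5 and Msn is below 0.

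The dye orientation left no called difference among the members either. In the same fit, 0 of 55 members had a dye term at an adjusted p below 0.05, against 0.0431% of all genes, and 3 had one at an unadjusted p below 0.05, against 7.43% of all genes. This test is the same as turning the sign of the arrays with the knockout in Cy3, the reading that applies if those arrays were not yet turned. Capg, a capping protein of the gelsolin family, had the largest difference between orientations, with -0.86 ± 0.90 on Cy5-knockout arrays and 1.19 ± 1.63 on Cy3-knockout arrays (SD, n = 7 each, limma, adjusted p = 0.48). The ventricular light chain Myl2 averaged -0.49 on Cy5-knockout and 0.90 on Cy3-knockout arrays, and Zyx -0.55 on Cy5-knockout and 0.33 on Cy3-knockout arrays. The array with the highest Capg ratio was replicate 2, at 4.07.

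Some members followed each other from array to array, and others ran opposite to each other. Of 630 pairs among the 36 members with ratios on all arrays, 25 (3.97%) had a Spearman correlation of at least 0.7, in contrast to 1.34% of all gene pairs, and the median over pairs was -0.011 for members and 0.011 for all genes. Opposite pairs were as strong: Actb stood at -0.939 with Arpc1a and -0.807 with Pxn, and Mylk at -0.833 with Pxn and -0.798 with Arpc1a. The share of pairs at such negative values was not counted. Capzb and Tagln2 had the most partners, 6 each, and Capzb was taken as the example because it comes first in the alphabet. Its partners were Myl12b (0.969), Arpc2 (0.890), Arpc5 (0.802), Msn (0.763), Tagln2 (0.741) and Cnn3 (0.719). They belong to 5 different roles, as a capping protein, a myosin light chain, Arp2/3 subunits, a membrane linker and thin filament regulators. The 7 genes were picked after their values had been seen and carry no test.

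On replicates 9, 10, 11 and 12 all 7 of these genes were below 0. On replicate 9 they lay close to 0, between -0.38 and -0.0090 with a median of -0.055, and the well measured genes described next had a median of 0.07 there. The median of the 7 genes was -0.49 on replicate 10, -0.73 on replicate 11 and -0.90 on replicate 12, where the values ran from -1.25 to -0.76. On replicates 6, 13 and 14 all 7 were above 0, with medians of 0.40, 0.39 and 0.37. Replicates 6, 10, 11, 12 and 14 carried the knockout in Cy3 and replicates 9 and 13 in Cy5. The lowest medians, on replicates 10, 11 and 12, thus all came from Cy3-knockout arrays. The highest median, 0.64 on replicate 2 with 1 of the 7 genes below 0, came from a Cy3-knockout array as well. Among the Cy5-knockout arrays the lowest median was -0.18, on replicate 4. The part of dye orientation in these values was not tested. Without replicates 10 to 12, 2 of the 6 partners still correlated with Capzb at 0.7 or above, over a range of 0.418 to 0.946 on 11 arrays.

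Other genes with few ratios of small whole numbers, called well measured here, lay below 0 on replicates 10 to 12 too, by less. Each of the 7 genes had at most 7.14% of its values as ratios of small whole numbers. The 2063 genes with as low a share had medians of -0.08, -0.27 and -0.30 on replicates 10, 11 and 12, while the remaining genes had medians of 0.04, 0.11 and 0.07. Of the 17 members with as low a share, 7 are the genes picked above, and the other 10 had medians of -0.17, -0.54 and -0.38 on these arrays. The 2063 genes and the remaining genes parted on other arrays as well. The 2063 genes had medians of -0.135 on replicate 1, 0.265 on replicate 2, -0.185 on replicate 4 and 0.20 on replicate 7. On each of these arrays the remaining genes had a median of the opposite sign. Among pairs of well measured genes with all ratios, 3.79% had a correlation of at least 0.7, and among such members other than the 7 picked genes 3 of 36 pairs did (8.33%). Capzb itself had 287 genes at 0.7 or above (6.21%), and 17.1% of the other 35 members. Capzb had been picked from the members with the most member partners, so its percentage among members was high by that choice. It cannot be set against the percentage over all genes, and no conclusion about the members is drawn from it. The part of spot brightness in these shared values was not tested.

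**Figure D4:**
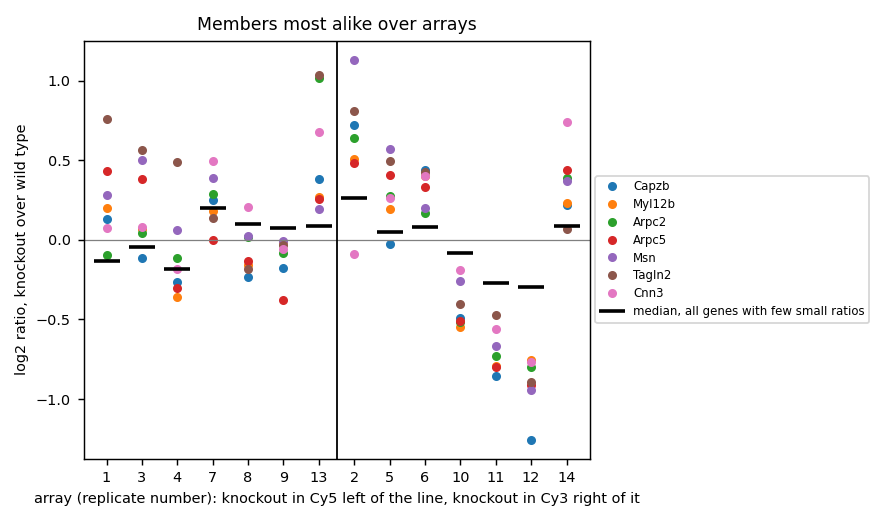
Log2 ratio of knockout over wild type on each array for Capzb and its 6 nearest members (coloured points), and the median of the 2063 genes with a low share of small whole-number ratios (black bars). On replicates 10, 11 and 12 the points lie between -1.25 and -0.19, and the bars between -0.30 and -0.08; on replicate 9 the points lie between -0.38 and -0.0090 and the bar at 0.07.

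Separate probes of the same gene gave a measure of how well a member was known. Of the members 19 had more than 1 probe, and the 55 members had 84 probes in all. Over 32 probe pairs with at least 10 shared arrays, the median Spearman correlation was 0.045, 18 pairs lay above 0 and 13 pairs had means of opposite sign. The highest value was that of the 2 Tpm2 probes without small whole-number ratios, 0.864 over 14 arrays, with means of 0.31 and 0.27, each above 0 on 11 of 14 arrays. The remaining Tpm2 probe, with 50% of such ratios, correlated with these at -0.249 and 0.139 over 10 arrays. The next highest pair, of Myl12a, stood at 0.450. When probes were tested singly, 81 of the 84 met the requirement on arrays and 0 were called.

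Probes of the actins differed in their means or in how they varied over arrays. Actg1 had 4 probes with means of -0.03, 0.22, -0.58 and 0.55, of which the second had ratios on all arrays and an SD of 0.41. The probes of Actb lay at -0.06 and 0.35, and those of Acta2 at 0.13 and 0.19. The means of the Acta2 probes were alike, but the probes correlated at -0.181 over 13 arrays. Ratios of small whole numbers made up 53.85% of the values of the second Acta2 probe. Mylk had 5 probes between -0.11 and 0.40, and Actr3 had one at 0.75 and one at -0.24. For Actr8, both probes lay below 0, at -0.77 and -0.79, and were below 0 on 7 of 12 and on 8 of 10 arrays. The coding sequences of the actins are closely related, and cross-hybridisation of these cDNA probes was not measured, so a ratio may hold signal from several actin genes.

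**Figure D5:**
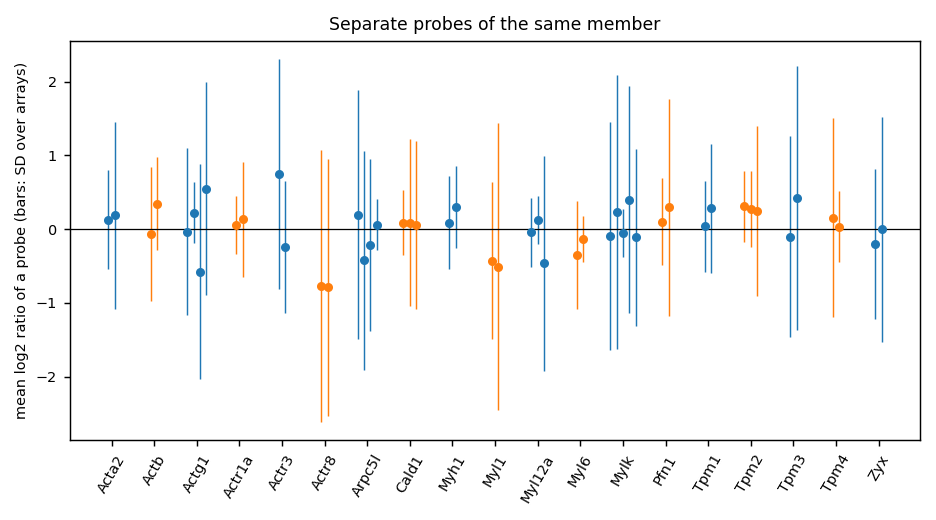
Mean log2 ratio (points) and SD over arrays (bars) of each probe for the 19 members with more than 1 probe; the colours only separate neighbouring genes. The means of the 3 probes of Tpm2 lie at 0.24 to 0.31, and those of Actg1 spread from -0.58 to 0.55.

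Genes that bind or anchor the same filaments were counted from lists by function. Of 37 other actin-binding genes 0 were called, with a median of 0.0028. Before adjustment Marcks (-0.53) and Tmod1 (-0.94) lay lower and Sptbn1 (0.47) and Coro1a (0.46) higher. Of 20 integrin adhesion genes 0 were called, with a median of -0.031. Before adjustment Itgb5 (-0.40) lay lower and Csrp2 (0.41) and Lpp (0.30) higher, all named after their values were seen. Over all genes 0.0863% were called, while 2.94% lay lower and 2.41% higher before adjustment (limma, p below 0.05). With 1 or 2 genes in each direction, these counts are no result about either list. Itgb1, the main integrin beta chain of fibroblasts, lay at 0.10 ± 0.38 (SD, n = 14).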

How the data were processed

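RNA of Ptdsr-/- and wild-type fibroblasts was compared on 14 two-colour cDNA arrays. The deposited values are log2 ratios made by the authors. The log base was read from the values. Scanner, background correction and normalization: not given in the sources used here. Values above 12 in size, a repeated code on each array, were set to missing, arrays were centred on their median (deposited medians -0.334 to 0.245) and the probes of a gene were averaged. Of 20355 probes 14030 have 1 symbol, 5 several and 6320 none in the platform annotation. limma 3.58.1 in R 4.3.3 (lmFit, eBayes) tested the intercept against 0 with a dye term for genes with ratios on 10 arrays and 4 of each orientation, and was tested on simulated data. The number of arrays limits the precision. Dim spots were approximated by values within 0.0011 log2 units of a ratio of integers no larger than 10. Named in full were members called or at an unadjusted p below 0.05, and in each role the smallest p and the member with most arrays and then the smallest SD. Members and lists were chosen with earlier results of these data known. Alternatives covered direction, dye term, arrays, centring, scaling, filters, probes, dim spots, eBayes and blocks of replicate numbers. The result of 1 further gene list is not reported here.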

Additional observations from a re-analysis of the deposited data

How the results depend on the processing

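No alternative called a member: 0 were lower and 0 higher after adjustment under each of the 31 settings run, and the smallest adjusted p of a member was 0.411, for Actr8 with replicate-number range as a fixed block (53 members fitted). The median log2 ratio of the members ran from -0.0049 to 0.079 over these settings. Members lower at an unadjusted p below 0.05 numbered 1 with the knockout in Cy5 alone, without replicates 1 and 2 together, without centring, with arrays scaled to equal spread, with quantile normalization, with 1 probe per gene, with robust and trended eBayes and with probes tested singly, and 0 with the knockout in Cy3 alone and with a random block of number range by dye. Members higher at that threshold numbered 3 with either orientation alone and with number range as a fixed block, and 1 without replicates 1 and 2 and with the median of probes. The Cy3 arrays turned gave 3 lower and 0 higher, where 7.43% of all genes passed that threshold in either direction. For the other alternatives the share over all genes was not counted, so their counts are no result about the members. Leaving out single arrays gave 1 to 3 lower and 0 to 2 higher. The cause of these moves was not tested; single orientations and left-out arrays rest on fewer values. Ezr kept its sign under 29 of 30 settings, and lay at 0.21 with the Cy3 arrays turned. Actr8, Arpc1a, Capza3, Msn, Myl1, Myl6 and Tpm2 kept theirs under each setting that gave a value. Actn4 kept its sign too, but only 17 settings gave it a value. Single arrays could be left out only where Actn4 had no ratio, so those fits could not move it from -0.49. Actg1 changed sign under 7 of 30, Actn3 under 4 of 29, and Actg2, Capzb and Cnn3 under 1 of 30 each. Leaving out single arrays took Actg2 between 0.19 and 0.43, Capzb between -0.17 and -0.0012, Cnn3 between 0.01 and 0.14 and Msn between 0.04 and 0.21. Of all genes, 0 were called with robust and trended eBayes or either orientation alone, 4 with the Cy3 arrays turned, 5 with the random block and 6 to 9 without single arrays, against 8. No paired analysis was possible because the arrays form 1 group of ratios. Missing ratios and the spread between arrays limit what can be seen for members such as Myh9 and Vcl.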
